A study of Mus musculus with 4 samples.

Results

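Natural killer (NK) cells are innate lymphocytes that kill stressed, infected or transformed cells without a rearranged antigen receptor. They were picked out of mouse tumours profiled by droplet single-cell RNA sequencing, in which each cell is a barcode and each captured transcript a unique molecular identifier (UMI). A barcode was taken as an NK cell when it held at least 1000 UMIs, at most 20% mitochondrial UMIs, under 0.3% of UMIs from the pigment genes Dct, Pmel, Mlana and Tyrp1, and at least 2 UMIs in sum of Ncr1, Klrb1c, Klre1, Klra8, Klra4 and Eomes. It could hold no more than 1 UMI of Cd3d, Cd3e and Cd3g together, none of Cd8a and Cd8b1, and no more than 1 each of the C1q genes together and of Cd79a. The rule found 57 NK cells among 10214 barcodes past the UMI and mitochondrial limits. As the comparison, 168 CD3-positive cells met the same UMI, mitochondrial, pigment, C1q and Cd79a limits with at least 2 UMIs of the CD3 genes.

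The study compared tumours of C57Bl6 mice, given as 6-8 weeks old, in 2 libraries labelled Control and 2 labelled Nanocapsule. All 4 libraries share the strain, the age range and the tissue. The labels call the cells cancer cells and name neither the tumour line, the content or dose of the capsules, the time of sampling, nor the animals, so p-values measure the spread between these libraries, which may be technical. The libraries held between 98943390 and 140491491 UMIs, and between 1705 and 3997 barcodes per library passed the limits.

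NK cells read their targets through germline-encoded receptors, many of them C-type lectins of the Klr families whose genes lie side by side in the NK gene complex on mouse chromosome 6. Activating receptors signal through adaptor proteins such as DAP12 (Tyrobp) and the Fc receptor gamma chain (Fcer1g), and inhibitory receptors that bind self MHC class I hold the cell back. An activated NK cell releases perforin and granzymes onto its target and secretes interferon gamma and the chemokines Ccl3, Ccl4, Ccl5 and Xcl1, the last of which attracts cross-presenting dendritic cells.

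Genes that stood highest in NK cells over CD3-positive cells are shown first by their upstream sequence, since the comparison of these cells turns on them. Their shared direction is what they were chosen by. The 200 bases before the start of each gene were read from RefSeq on GRCm38.p6, where 8 of the 12 genes with the largest rises had an entry. They were searched on both strands for 3 short core motifs of factor families that act in NK cells, namely AGGAAG (Ets family), GGTGTG (T-box family, which includes Eomes and Tbx21) and TGTGGT (Runx family). Capitals mark the matches, and each sequence runs 5′ to 3′ on the strand of its gene.
Itgam, plus strand, chr7:128062440-128062639: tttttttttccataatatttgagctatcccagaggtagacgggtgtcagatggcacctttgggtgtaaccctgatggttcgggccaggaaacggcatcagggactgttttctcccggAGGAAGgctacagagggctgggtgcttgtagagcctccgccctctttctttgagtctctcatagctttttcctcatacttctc
Aoah, plus strand, chr13:20793913-20794112: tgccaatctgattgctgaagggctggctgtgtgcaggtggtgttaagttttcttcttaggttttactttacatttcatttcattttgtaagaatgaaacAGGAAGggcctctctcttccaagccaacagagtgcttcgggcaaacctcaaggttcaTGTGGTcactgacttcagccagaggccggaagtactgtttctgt
Klrb1f, plus strand, chr6:129045701-129045900: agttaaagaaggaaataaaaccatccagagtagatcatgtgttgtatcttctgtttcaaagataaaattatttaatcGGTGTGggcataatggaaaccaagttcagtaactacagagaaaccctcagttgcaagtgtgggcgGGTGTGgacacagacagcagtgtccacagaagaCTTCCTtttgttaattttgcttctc
These 3 windows lie outside every annotated exon. The Ets core stood in 7 of the 8 windows of rises, in 4 of 8 windows of genes with the largest falls and in 24.5% of all 27025 promoters. The T-box core stood in 3 of 8, 1 of 8 and 13.2%, and the Runx core in 3 of 8, 1 of 8 and 11.3%. Klrb1a, Klrb1b and Klrb1f are relatives of 1 family, so the windows are not separate instances. All of these relatives held the Ets core, and Klrb1b and Klrb1f the T-box core. A match is a description of the letters and no evidence of binding, and Klra9, whose window held no match, rose as well.

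The genes of the rule set the cells apart by construction, and their levels are a description. Levels are given as CPM, the UMIs of a gene summed over the NK cells of a library and scaled to a common total of UMIs, in the order Control 1, Control 2, Nanocapsule 1 and Nanocapsule 2. Ncr1, which encodes the activating receptor NKp46, stood at 785, 524, 700 and 537 CPM. It was found in 52 of the 57 cells (91.2%), against 4 of 168 CD3-positive cells. Klrb1c (NK1.1) was found in 50 cells, Klre1 in 48 and Eomes, a T-box factor of NK development, in 36. Of the class I receptors Klra4 and Klra8, 19 cells held both, 4 held Klra4 alone, 9 held Klra8 alone and 25 held neither, and no CD3-positive cell held either. Genes of the Klra family are near copies of each other, so reads may be split between them.

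Most cells lay well inside the rule. The sum of the 6 NK genes ranged from 2 to 45 UMIs with a median of 14, and 3 cells stood at exactly 2. Another 11 barcodes met every other limit with a sum of 1, and 3 of the 57 cells held 1 UMI of a CD3 gene. Of barcodes with an NK sum of at least 2, 25 were left out for their CD3 UMIs and 4 for pigment genes. No NK barcode was shared between libraries, and 3 to 14 passing barcodes were shared between pairs of libraries.

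Markers that the rule did not use were checked next. Gzma, the one marker of the 4 fixed for NK cells that lies outside the rule, had UMIs in 50 of 57 cells (87.7%). At a common depth of 1000 UMIs per cell it was found in 47 NK cells (82.5%) and in 4.8% of CD3-positive cells. Its background in macrophage-like barcodes, defined by at least 5 UMIs of the C1q genes, was 0.34%, although their median depth of 7421 to 20221 UMIs per library exceeded the 2579.5 to 5341.5 UMIs of NK cells and the 2704 to 7506.5 UMIs of CD3-positive cells. No NK cell held a UMI of the 8 ILC2 and ILC3 genes or of the 6 fibroblast markers. A count of 0 in 57 cells limits the cells with a UMI, not the cells expressing a gene.

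4 barcodes carried transcripts of markers of other cell types, to unlike degrees. They held at least 10 UMIs of macrophage and dendritic cell markers and are called mixed barcodes below, with 1 in Control 1, 2 in Control 2, none in Nanocapsule 1 and 1 in Nanocapsule 2. The Control 1 barcode of 9336 UMIs held 28 UMIs of these markers, 21 of them Cd74, and none of Lyz2, beside an NK sum of 15. One Control 2 barcode of 13590 UMIs held 236 UMIs of the macrophage gene Lyz2 beside 34 of Gzma. The Nanocapsule 2 barcode of 12482 UMIs held 179 of Lyz2 beside 22 of Gzma. The other Control 2 barcode, of 10078 UMIs, held 2 UMIs of the NK genes, none of Gzma and Nkg7, and 206 of macrophage and dendritic markers. Both NK UMIs were of Klre1, beside 1 of Tyrobp, 2 of Klrk1, 74 of Ccl5 and none of Fcer1g. It held no Lyz2, but 149 UMIs of Cd74, 222 of Cst3, 49 of Fscn1 and 17 of Ccr7. This barcode may be no NK cell, and its identity was not tested. It met the rule and is counted as an NK cell wherever mixed barcodes are not left out. The sum of the 9 macrophage markers in NK cells was 634, 7313, 117 and 6045 CPM with the mixed barcodes and 0, 55.7, 117 and 42.7 CPM without them. Results that rest on them are given both ways. In fits with CD3-positive cells, the same limit also left out 8 CD3-positive barcodes.

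**Figure D1:**
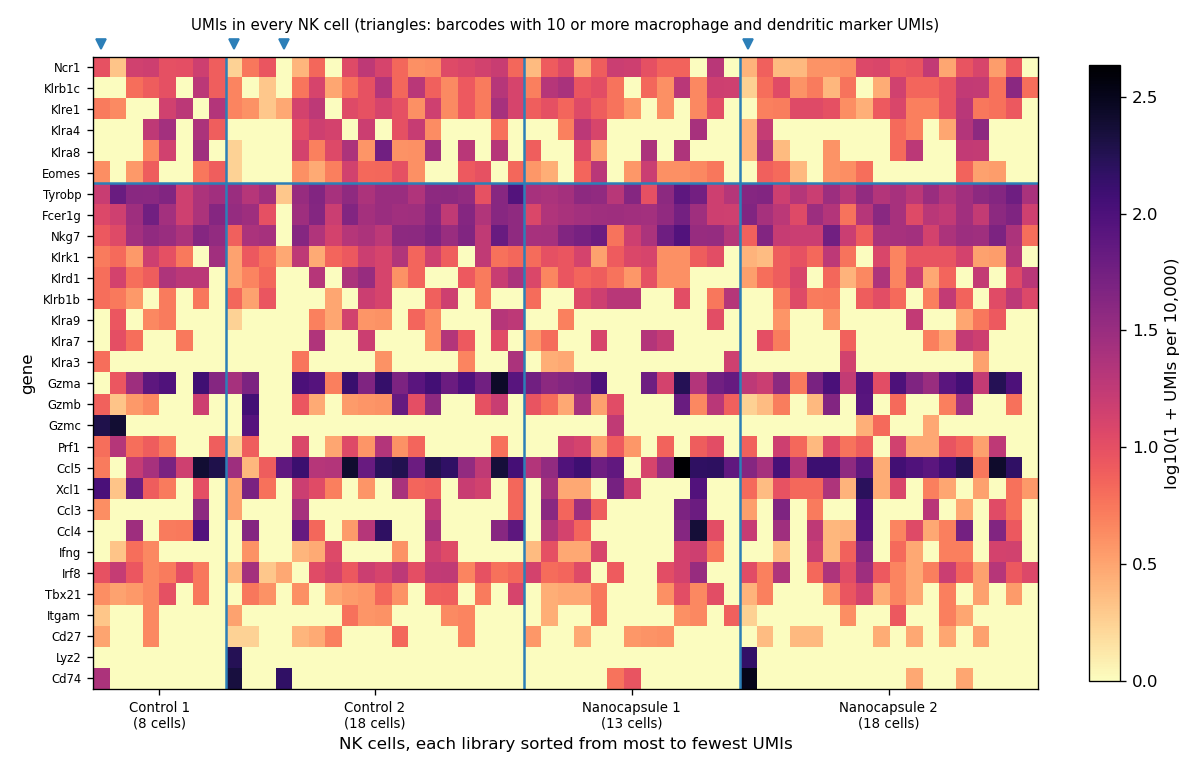
Each column is 1 of the 57 NK cells, ordered by library and depth, and each row a gene; colour gives the UMIs scaled to a common total per cell, on a log10 scale, the 6 rows above the horizontal line are genes of the rule, and triangles mark the 4 mixed barcodes. Tyrobp has UMIs in all 57 cells, Gzma in 50 and Gzmc in 7, and Lyz2 in 2 of the mixed barcodes.

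The first comparison asks whether treated tumours held more NK cells. Control 1 gave 8 NK cells and Control 2 gave 18, while Nanocapsule 1 gave 13 and Nanocapsule 2 gave 18. Their share of passing barcodes was 0.200%, 0.910%, 0.513% and 1.06%, and the range of the controls spanned that of Nanocapsule 1. With exact Clopper-Pearson 95% intervals the lowest share lay between 0.0864% and 0.394% and the highest between 0.627% and 1.66%, which cover counting error only. The means of 0.555% ± 0.502 for controls and 0.784% ± 0.384 for treated tumours (SD, n = 2) did not differ beyond the spread of libraries (two-sided exact permutation p = 0.667, n = 2 per group).

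Passing barcodes are mostly pigmented cells, so 2 narrower denominators were used. NK plus CD3-positive cells were planned as a denominator, and barcodes with a Ptprc UMI were not. Of NK plus CD3-positive cells, NK cells made up 33.3%, 21.95%, 25.5% and 26.5%. The means were 27.6% ± 8.05 and 26.0% ± 0.693 (SD, n = 2; exact permutation p = 1). Of barcodes under the pigment limit with a UMI of Ptprc, the pan-leukocyte gene CD45, they made up 4.49%, 5.88%, 7.93% and 8.41%. Of the 18 NK cells of Control 2, 17 held a Ptprc UMI and were counted. Here both nanocapsule libraries lay above both controls, with means of 8.17% ± 0.343 and 5.19% ± 0.981 (SD, n = 2). The exact permutation p was 0.33, the smallest that 2 libraries against 2 allow, and p-values of the 3 denominators were not adjusted. The controls had a median depth of 2579.5 and 3440.5 UMIs per NK cell, the treated libraries one of 3660 and 5341.5, and its part in the shares was not tested.

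**Figure D2:**
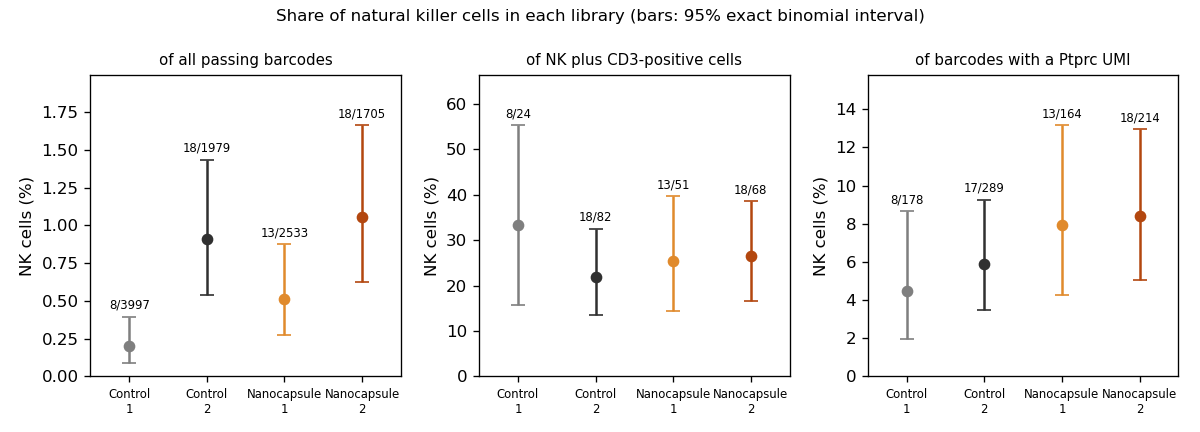
Share of NK cells in percent for each library under 3 denominators; points are the share, bars the 95% exact binomial interval, and the labels give NK cells over the denominator. The 2 nanocapsule libraries lie above both controls only among barcodes with a Ptprc UMI, at 7.93% and 8.41% against 4.49% and 5.88%, and all intervals there overlap.

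The second comparison sets NK against CD3-positive cells of the same tumours. UMIs were summed per library and cell set and tested with edgeR's quasi-likelihood test, with library as a block and Benjamini-Hochberg adjustment at 0.05. Control 1, with 8 NK cells, fell under the planned minimum of 10 and did not enter, so the fit holds Control 2, Nanocapsule 1 and Nanocapsule 2. Of 3262 genes tested outside the rule 208 passed (6.38%), of which 113 (3.46%) were higher and 95 (2.91%) lower in NK cells, and the median log2 fold over all tested genes was -0.01. Because cells were chosen by NK and CD3 genes, the direction of other NK and T cell genes follows in part from that choice. For 432 of the 3262 genes (13.2%) NK cells lay above CD3-positive cells in each of the 4 libraries. With all 4 libraries, 1656 genes could be tested and 84 were higher and 42 lower (7.61% in all). Of 16 tested NK identity genes outside the rule, 12 rose and none fell (median log2 fold 2.76).

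**Figure D3:**
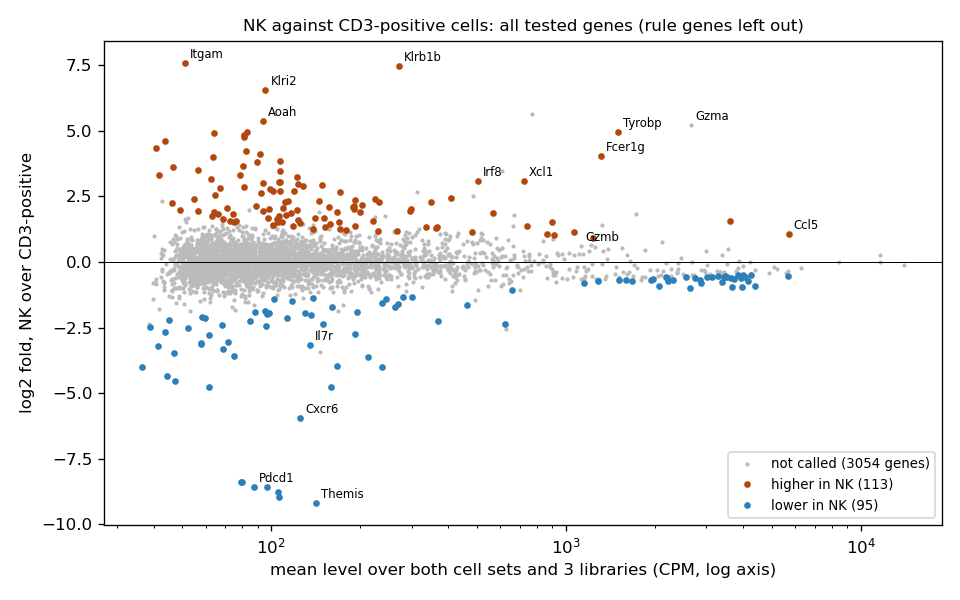
Log2 fold of NK over CD3-positive cells against the mean level in CPM (log axis) for 3262 genes, 1 point per gene; brown points are the 113 genes higher and blue points the 95 genes lower in NK cells. Gzma lies high on the plot without being called.

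The adaptors and activating receptors were higher in NK cells. Of 14 tested genes of that list, 8 rose and none fell, with a median log2 fold of 2.21. Tyrobp stood at 3564, 2661, 3133 and 2872 CPM in NK cells and at 0, 66.7, 222 and 41.8 CPM in CD3-positive cells. The sets did not overlap, and the log2 fold was 4.95 ± 0.56 (SE; edgeR adjusted p = 0.00858, n = 3 libraries, higher in 4 of 4). Without Control 2 the adjusted p of Tyrobp by edgeR was 0.286. Fcer1g stood at 2084, 2494, 2510 and 2410 CPM in NK cells and at most 226 CPM in CD3-positive cells (log2 fold 4.04 ± 0.34, edgeR adjusted p = 5.38e-06). Both adaptors are shared with myeloid cells, and 98.6% of macrophage-like barcodes held a UMI of each. Klrk1, the receptor NKG2D, stood at 634, 712, 720 and 650 CPM against 137, 137, 80.2 and 149 CPM. Its log2 fold was 2.43 ± 0.36 (edgeR adjusted p = 2.67e-05).

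Among the lectin-like receptors that the rule did not use, Klrb1b had the highest log2 fold. This inhibitory receptor of the NKR-P1 family (chr6:128813706-128826331, GRCm38) stood at 362, 377, 720 and 527 CPM in NK cells and at 0, 3.18, 0 and 2.99 CPM in CD3-positive cells. The log2 fold was 7.46 ± 0.55 (edgeR adjusted p = 3.91e-10). Its relatives Klrb1a and Klrb1f rose by log2 folds of 4.94 ± 0.59 and 4.82 ± 0.61, and Klri2 by 6.57 ± 0.64 (edgeR adjusted p = 2.06e-06, 3.21e-06 and 4.91e-08). Of 11 tested inhibitory receptors, 5 rose (Klra3, Klra7, Klra9, Klrb1b and Lilrb4a) and Pdcd1 fell, with a median log2 fold of 0.75. Klrd1 (CD94) and Klrc1 (NKG2A), which pair to bind the nonclassical class I molecule Qa-1, were not called: their log2 folds were 0.75 ± 0.32 and 0.71 ± 0.35 (edgeR adjusted p = 0.215 and 0.324). Klrd1 was found in 86 of 168 CD3-positive cells and in 45 of 57 NK cells.

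These receptor genes sit close together. The stretch from Klrb1a to the last Klra gene, chr6:128609227-131247362, spans 2.64 Mb and holds 24 Klr genes. Of its 14 genes tested outside the rule, 9 rose (64.3%, against 3.46% of all tested genes) and none fell. The other 5 were Clec2d, 2310001H17Rik, Cd69, Klrd1 and Klrc1. Klrb1c, Klre1, Klra4 and Klra8, by which the cells were chosen, lie in this stretch too. The direction of its other Klr genes follows in part from that choice. Klra3, Klra7 and Klra9, which rose, are near copies of Klra4 and Klra8. The number of Klra genes with a UMI varied from cell to cell: 12 cells held none, 10 held 1, 11 held 2, 16 held 3, 6 held 4 and 2 held 5. At this depth a missing UMI does not show that a receptor was off.

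The killing machinery was shared with CD3-positive cells to different degrees. Of 13 tested granule and death ligand genes, 4 rose (Ctsw, Fasl, Serpinb6b and Serpinb9) and Gzmk fell, with a median log2 fold of 1.13. Gzma (chr13:113093825-113100981), a trypsin-like granzyme, stood at 2809, 5459, 4962 and 4990 CPM in NK cells and at 481, 203, 14.6 and 273 CPM in CD3-positive cells. Every NK value lay above every CD3-positive value, yet the log2 fold of 5.23 ± 1.17 did not pass (edgeR adjusted p = 0.258). Gzmb stood at 362, 2085, 1031 and 960 CPM in NK cells and at 1288, 324, 999 and 1332 CPM in CD3-positive cells, and the sets overlapped (log2 fold 0.60 ± 0.96, edgeR adjusted p = 0.872). One Control 2 cell held 149 of the 199 Gzmb UMIs of its library.

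Perforin and NKG7 were measured in both sets as well. Prf1, the pore-forming protein, stood at 876, 356, 467 and 574 CPM against 103, 19.1, 394 and 361 CPM (log2 fold 1.28 ± 0.79, edgeR adjusted p = 0.591). Nkg7, a granule membrane protein, was found in 56 of 57 NK cells and 122 of 168 CD3-positive cells (log2 fold 0.75 ± 0.25, edgeR adjusted p = 0.102). Fasl, the Fas ligand, rose with a log2 fold of 2.11 ± 0.44, and Serpinb9, an inhibitor of granzyme B that protects the killer cell, with 2.02 ± 0.37 (edgeR adjusted p = 0.00441 and 0.000489). Serpinb9 stood at 121 CPM in Control 1 NK cells, below the 137 CPM of its CD3-positive cells, and at 448 to 534 CPM in the other libraries. Gzmk was found in 1 NK cell and 38 CD3-positive cells. Gzmd, Gzme, Gzmf and Gzmg had no UMI in any NK cell.

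Of secreted factors, Xcl1 and Ccl5 rose among 8 tested, with a median log2 fold of 1.1. Xcl1 stood at 3776, 1153, 1343 and 1346 CPM in NK cells and at 17.2, 66.7, 128 and 290 CPM in CD3-positive cells. The sets did not overlap (log2 fold 3.09 ± 0.35, edgeR adjusted p = 2.06e-06). In the fit of 4 libraries the edgeR adjusted p of Xcl1 was 0.0699, and 1 Control 1 cell held 96 of the 125 UMIs there. Ccl5 stood at 3383, 6873, 8445 and 7994 CPM against 4243, 4589, 2360 and 3952 CPM, with Control 1 going the other way (log2 fold 1.05 ± 0.20, edgeR adjusted p = 0.00879 with 3 libraries and 0.277 with 4). Ifng had UMIs in 29 of 57 NK cells (50.9%) and 47 of 168 CD3-positive cells, or 28.1% and 12.5% at a common depth, and in no macrophage-like barcode. Its log2 fold was 1.16 ± 0.36 (edgeR adjusted p = 0.0549).

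Of 16 tested genes of cytokine signalling, 5 rose (Ifngr1, Il12rb2, Il18rap, Il2rb and Stat4) and Il21r fell, with a median log2 fold of 0.35. Il12rb2, the signalling chain of the interleukin-12 receptor, stood at 121, 314, 525 and 339 CPM against 51.5, 92.1, 43.8 and 79.2 CPM (log2 fold 2.31 ± 0.38, edgeR adjusted p = 0.000129). NK cells lay above CD3-positive cells in each library, as for 13.2% of all tested genes. Il2rb, the beta chain shared by the interleukin-2 and interleukin-15 receptors, stood at 1087, 849, 1382 and 1827 CPM against 464, 318, 398 and 597 CPM (log2 fold 1.52 ± 0.25, edgeR adjusted p = 0.000139). Il18rap rose with 3 libraries, although Control 1 NK cells held no UMI of it (edgeR adjusted p = 0.0581 with 4).

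**Figure D4:**
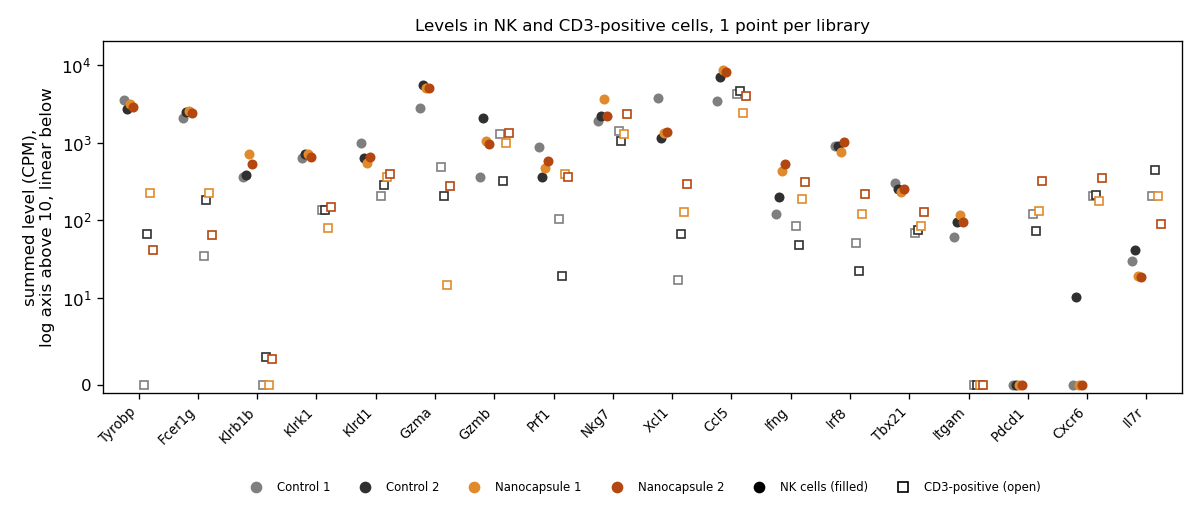
Summed level in CPM of 18 genes in NK cells (filled circles) and CD3-positive cells (open squares), 1 point per library, on an axis that is logarithmic above 10 and linear below. Tyrobp, Fcer1g, Klrb1b, Klrk1, Gzma, Xcl1 and Irf8 do not overlap between the sets, Gzmb, Nkg7 and Ccl5 do, and Pdcd1 is at 0 in all 4 NK sums.

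Adhesion and trafficking genes gave 5 rises and 1 fall of 14 tested, with a median log2 fold of 0.76. Itgam (CD11b, chr7:128062640-128118491), an integrin that marks mature mouse NK cells, had 2, 9, 6 and 10 UMIs in NK cells and none in CD3-positive cells. It was at least 41.4-fold higher against a limit of 3 counts over the group (edgeR adjusted p = 2.67e-05). Itgam was found in 18 NK cells, mixed barcodes among them. Without the mixed barcodes it was called as well (edgeR adjusted p = 0.000239). Aoah, which is not on this list, is an enzyme that deacylates bacterial lipopolysaccharide. It stood at 60.4, 178, 117 and 254 CPM against 0, 0, 10.9 and 2.99 CPM (log2 fold 5.38 ± 0.63, edgeR adjusted p = 2.74e-06). Macrophages also carried Aoah, at 90.9, 104, 93.9 and 196 CPM, and the mixed barcodes held 1, 2, 0 and 1 of its 2, 17, 6 and 27 UMIs in NK cells. Without the mixed barcodes the log2 fold of Aoah was 5.29 (edgeR adjusted p = 3.02e-05). Itga2 (CD49b) and the chemokine receptor Ccr2 rose with log2 folds of 3.31 ± 0.52 and 2.41 ± 0.38 (edgeR adjusted p = 9.8e-05 and 6.48e-05). Cxcr6, a receptor of tissue-resident lymphocytes, had 1 UMI in all NK cells and stood at 206, 213, 179 and 351 CPM in CD3-positive cells (log2 fold -5.94 ± 0.74, edgeR adjusted p = 2.79e-06).

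Genes of maturation and residency moved in both directions. In mouse, CD27 marks earlier and CD11b later NK stages. In these cells 5 held UMIs of both Cd27 and Itgam, 16 of Cd27 alone, 13 of Itgam alone and 23 of neither. Mixed barcodes are among them. That of Control 1 held 2 UMIs of Cd27 and 1 of Itgam. The Control 2 one of 13590 UMIs held 1 and 3, and that of Nanocapsule 2 held 0 and 1. Of 6 tested late maturation genes, Irf8, Itgam and Zeb2 rose and Ly6c2 fell (median log2 fold 1.08). Of 8 early ones, Ctla2a rose and Il7r and Thy1 fell (median -0.78). Of 5 tested genes of ILC1 and residency, none rose and Cxcr6, Il7r and Inpp4b fell (median -3.15). Itga1 (CD49a) had UMIs in 5 NK cells, and Zfp683, Itgae and Gpr55 in none. Cx3cr1 was found in 1 cell and S1pr5, the receptor used to leave tissue, in 4.

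Of 17 tested transcription factors, Irf8, Tbx21 and Zeb2 rose and Bcl11b, Ikzf2 and Tox fell (median log2 fold 0.53). Irf8, known from myeloid cells and also used by NK cells, stood at 906, 901, 759 and 1008 CPM against 51.5, 22.2, 120 and 217 CPM. The groups did not overlap (log2 fold 3.09 ± 0.53, edgeR adjusted p = 0.00446). Irf8 was found in 49 of 57 NK cells, and in macrophage-like barcodes its level was 137 to 208 CPM. Tbx21, which encodes T-bet, stood at 302, 251, 233 and 254 CPM against 68.7, 76.2, 83.9 and 128 CPM (log2 fold 1.27 ± 0.36, edgeR adjusted p = 0.0269).

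T cell genes outside the rule were low, with 9 of 17 tested falling, none rising and a median log2 fold of -2.36. Themis, Cd5, Cd6 and Bcl11b, all genes of T cell development or signalling, had no UMI in any NK cell. Themis stood at 412, 327, 284 and 243 CPM in CD3-positive cells, at least 26.7-fold higher there (edgeR adjusted p = 9.45e-07). Pdcd1, which encodes PD-1, likewise had no UMI in NK cells and 120, 73.0, 131 and 321 CPM in CD3-positive cells, at least 20.4-fold higher there (edgeR adjusted p = 9e-06). Havcr2 (TIM-3) had no UMI in NK cells either, and Lag3 had 1, whereas Tigit was found in 24 of 57 NK cells at 151, 147, 195 and 132 CPM. Trdv4, a variable segment of the T cell receptor delta locus, was found in 19 NK cells and in no CD3-positive cell, and its constant gene Trdc in 11 and 4.

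States of the cells separated the sets less. No gene of proliferation (6 tested) or glycolysis (9 tested) was called, with median log2 folds of -0.88 and -0.61. Mki67, a mark of cycling cells, had UMIs in 3 NK and 32 CD3-positive cells. Igtp fell among 15 tested genes of the interferon gamma response (median -0.56), and Ifi27l2a and Isg20 among 10 of the type I interferon response (median -0.55). Nr4a2 rose among 14 immediate early genes (median 0.43). Of 12 tested genes of oxidative stress, Ftl1 rose, with an edgeR adjusted p of 0.0291 that became 0.313 without the mixed barcodes. Catalase (Cat) had UMIs in 10 NK cells, and Hmox1 in none.

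The third comparison sets NK cells of nanocapsule libraries against those of controls. The planned fit holds 1 control, Control 2, against 2 nanocapsule libraries, so the lone control is assumed to vary like the others. It called 24 of 2327 genes (1.03%), of which 5 were higher (0.215%) and 19 lower (0.817%) with nanocapsules. The fit of all 4 libraries, chosen after seeing the data, called 1 gene, Ccl3, of 1309 (0.0764%). In bulk sums, fewer cells in a state and less RNA per cell cannot be told apart.

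Ccl3, a chemokine that draws monocytes and lymphocytes, was higher with nanocapsules in both fits. Its level was 332 and 262 CPM for the control libraries against 1459 and 1026 CPM for the treated ones, and the groups did not overlap. The log2 fold was 2.24 ± 0.36 with 3 libraries and 2.04 with 4 (edgeR adjusted p = 2.26e-07 and 0.0263). UMIs were found in 2 of 8, 4 of 18, 6 of 13 and 8 of 18 cells, and 1 Nanocapsule 2 cell held 54 of the 109 UMIs of its library. Without the mixed barcodes and without the highest cell of each library, the levels were 0, 91.7, 1157 and 591 CPM. Without Nanocapsule 1, and with the other 3 libraries, no gene was called by edgeR and 95 stood at an unadjusted p under 0.05. By DESeq2 on the 3 libraries of the planned fit, 2 genes were called and both were lower.

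The other 4 rises were survival and kinase genes that passed with 3 libraries and not with 4 in the fit without a replicate block. Pim1 and Pim2, serine/threonine kinases induced by cytokines through STAT5, stood at 393, 346, 778 and 1083 CPM and at 0, 94.3, 253 and 461 CPM. Bcl2, which restrains mitochondrial cell death, stood at 181, 147, 409 and 650 CPM. The groups did not overlap for any of the 3, but neither did they for 20.5% of all tested genes in this direction. The log2 folds were 1.46 ± 0.36, 2.00 ± 0.54 and 1.90 ± 0.46 with 3 libraries (edgeR adjusted p = 0.00696, 0.0243 and 0.00498), and the edgeR adjusted p was 0.216 for each with 4. Without the mixed barcodes and with 3 libraries Pim2 was not called (edgeR adjusted p = 0.153). Cdk8 stood at 3504, 2965, 5584 and 6525 CPM (log2 fold 1.05 ± 0.19, edgeR adjusted p = 9.56e-06). Cdk8 was at 4616 to 6442 CPM in droplets of at most 100 UMIs, and its part from free RNA was not tested. With 4 libraries and without the mixed barcodes edgeR called 4 genes (0.371%), Ccl3, Pim1, Cdk8 and Cmss1.

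Most of the 19 falls rested on the mixed barcodes of Control 2, which held 24.8% of its NK UMIs. For 16 of the 19 genes these 2 barcodes held over 50% of the Control 2 UMIs, among them Cst3, Fabp5, Fscn1, Socs2 and Cxcl16. Cst3, a secreted protease inhibitor abundant in myeloid cells, stood at 876, 2798, 195 and 339 CPM with the mixed barcodes and at 421, 181, 195 and 107 CPM without them. The Control 2 barcode of 10078 UMIs, which may be no NK cell, alone held 222 of the 267 Cst3 UMIs of its library. It also held all 49 of Fscn1, all 24 of Cxcl16, 25 of 26 of Socs2, 37 of 49 of Fabp5 and 45 of 53 of Gyg. The remaining 3 genes were Gzmc, Gzmb and Ly6a. In Control 2, 1 cell outside the mixed barcodes held all 114 Gzmc, 149 of 199 Gzmb and 34 of 68 Ly6a UMIs. A mixed barcode held the other 34 of Ly6a. Without the mixed barcodes and the highest cell of each library, Ly6a stood at 0 CPM in every library. Gzmb then stood at 139, 854, 685 and 613 CPM. Gzmc (chr14:56231441-56234656) stood at 11870, 1194, 136 and 47.1 CPM, with all 114 UMIs of Control 2 in 1 cell and 393 of Control 1 in 2 cells. Its edgeR adjusted p was 3.77e-17 with 3 libraries and 0.74 with 4. Gzmb fell with 3 libraries (log2 fold -1.05 ± 0.26, edgeR adjusted p = 0.0086), whereas Control 1 at 362 CPM lay below both nanocapsule libraries.

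The effector and receptor genes named for this comparison were otherwise not called with 3 libraries, nor with 4 in the fit without a replicate block. Gzma, which overlapped between the groups at 2809 and 5459 CPM against 4962 and 4990 CPM, had a log2 fold of -0.12 ± 0.18 with 3 libraries and 0.21 with 4 (edgeR adjusted p = 0.926 and 0.945). Ifng stood at 121, 199, 428 and 537 CPM, both nanocapsule libraries above both controls, with a log2 fold of 1.31 ± 0.44 (edgeR adjusted p = 0.191 with 3 libraries and 0.265 with 4). Prf1 and Ccl5 had edgeR adjusted p-values of 0.986 and 0.689 with 4 libraries. Ncr1, Klrb1c and Klre1 are genes of the rule, by which the cells of both groups were chosen. Their levels are a description, and their fits are no test of a change in NK receptors. Ccl3 was the only called gene of the secreted factor, activating, inhibitory, cytokine receptor, trafficking and transcription factor lists. Given the small share of all tested genes called, a lack of calls in lists this short says nothing about these families.

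**Figure D5:**
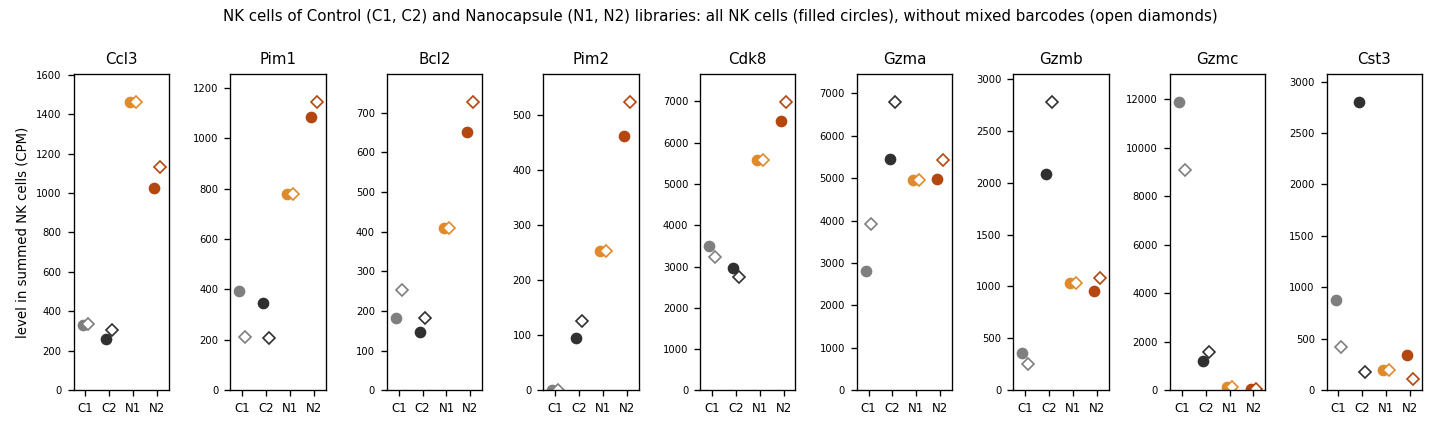
Level in CPM of 9 genes in the summed NK cells of Control 1 and 2 (C1, C2) and Nanocapsule 1 and 2 (N1, N2); filled circles hold all NK cells and open diamonds leave out the mixed barcodes, with a linear axis from 0 for each gene. Ccl3, Pim1, Bcl2, Pim2 and Cdk8 lie higher in both nanocapsule libraries, Gzma overlaps, and the Control 2 value of Cst3 drops from 2798 to 181 CPM without the mixed barcodes.

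Whether the treatment difference of NK cells departed from that of CD3-positive cells was tested as an interaction. With 3 libraries edgeR called 80 of 5229 genes (1.53%), 20 higher (0.382%) and 60 lower (1.15%). With 4 libraries it called 4 (0.171%), namely Ccl1, Cst3, Nrgn and Prf1. All 90 Ccl1 UMIs of NK cells lay in 1 mixed Control 1 barcode. Without the mixed barcodes and with 3 libraries it called 86, 27 higher and 59 lower. With 4 libraries and without the mixed barcodes edgeR called none of 1900 genes, while 179 stood at an unadjusted p under 0.05, and DESeq2 called 2 on the 3 libraries of the planned fit. NK cells of the controls held 876 and 356 CPM of Prf1 and those of treated tumours 467 and 574 CPM, against 103 and 19.1 CPM and 394 and 361 CPM in CD3-positive cells. Its difference of log2 folds was -3.76 ± 0.66 with 3 libraries and -3.20 with 4 (edgeR adjusted p = 5.47e-06 and 0.0196).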

How the data were processed

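For every library the authors deposited raw UMI counts of all droplets. Per the labels' protocols the libraries were made with 10x Genomics single cell 3′ v2 chemistry. Cell Ranger 2.1.1 and mm10 are named in the submitters' processing notes, but another Cell Ranger version in the matrix headers, and which of them made the counts is not settled. Of 32285 genes, 32158 matched the GENCODE annotation on GRCm38.

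The NK and CD3-positive cells, and the gene lists, were chosen with earlier results of these data known. UMIs were summed per library and cell set, since cells are not replicates. A library entered a fit with at least 10 cells of each set. Sums were tested with edgeR 4.0.16 in R 4.3.3 (TMM, filterByExpr, robust quasi-likelihood test, Benjamini-Hochberg adjustment at 0.05). The SE is the absolute log2 fold over the square root of F. A fold against a group at 0 used a limit of 3 counts over the group. Shares used exact permutation tests and exact binomial intervals in scipy 1.17.1. With 57 NK cells no doublet caller was run. Instead, barcodes with at least 10 macrophage and dendritic marker UMIs were left out as an alternative. This limit was set on both cell sets and removed 4 NK and 8 CD3-positive barcodes. Detection was also computed after thinning each cell to 1000 UMIs, which left out no cell. The fits were tested on simulated data.

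Genes named for NK against CD3-positive cells were the 12 largest rises and falls with at least 100 CPM and 1 direction in every fitted library. Up to 4 called members of each list were added (the 2 most abundant where none passed). For treatment they were up to 10 rises and 10 falls without overlap in the 3 fitted libraries, plus 8 effector and NK genes. Over all 4 libraries some of these falls overlapped between the groups, such as Fscn1, Fabp5 and Ly6a. Others named were chosen after their values were seen. Alternatives were other UMI, mitochondrial, NK and CD3 limits, DESeq2 1.42.0 size factors and test, no expression filter, each library left out, the replicate block, and other CD3-positive sets. Fits of 4 libraries with a minimum of 5 cells, and fits without mixed barcodes, were added after seeing the data. The Ptprc denominator of the NK share was not in the plan. One gene of the adhesion and trafficking list is counted there and not reported here.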

Additional observations from a re-analysis of the deposited data

Results flagged for a closer look

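The treatment difference in NK cells departed from that in CD3-positive cells for 14 of the genes named in the report or in the treatment fit (edgeR interaction, adjusted p under 0.05, 3 libraries with 1 control). Values are the log2 fold of nanocapsule over control in NK cells minus that in CD3-positive cells. It was 3.13 for Bcl2 and 1.34 for Cdk8, which were higher in NK cells of nanocapsule libraries. It was -3.68 for Ccl3, whose CD3-positive level was 9.53 CPM in Control 2 and 332 and 926 CPM in the nanocapsule libraries, with 326 CPM in Control 1. It was -2.97 for Gzmb, -13.31 for Gzmc and -3.76 for Prf1 among granule genes. The Gzmc value is a fitted one against 0 UMIs in Control 2 CD3-positive cells and is no bound. Of genes mostly held by the mixed barcodes of Control 2, it was -4.14 for Cst3, -4.58 for Fabp5, -16.51 for Fscn1, a fitted value with NK sums at 0, and -2.90 for Gyg. It was -3.49 for Ly6a, -2.96 for Irf8, -1.75 for Ldha and -2.03 for Tubb5. With 4 libraries only Cst3 and Prf1 of these 14 passed by edgeR, with adjusted p-values of 0.00149 and 0.0196. With 4 libraries and without the mixed barcodes none of the 12 genes tested passed.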

How the results depend on the processing

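The 24 genes with the largest changes between NK and CD3-positive cells kept their sign in every alternative that tested them, and the calls lost were Trbv16 (DESeq2, no replicate block), Pdcd1 (no replicate block), Tyrobp (without Control 2, and against 3 other CD3-positive sets) and Fcer1g (against 2 of those sets). With 4 libraries 14 of the 24 were tested and all 14 called. Of 54 genes named for NK against CD3-positive cells, 797 alternative values kept their call, 11 gained one and 46 lost one, and none reversed. The number higher and lower was 65 and 26 by DESeq2, 152 and 242 with no filter, 68 and 34 against CD3-positive cells without Cd8, 84 and 42 with a minimum of 5 cells, and 101 and 56 with that and without mixed barcodes. Leaving out 1 library gave 75 to 236 higher and 46 to 246 lower, the highest without Control 2. Without the replicate block of the library the numbers were 115 and 76.

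For treatment in NK cells the number higher and lower was 3 and 22 with no filter, 5 and 5 with an NK sum of at least 3, 0 and 2 by DESeq2, 1 and 0 with a minimum of 5 cells, 4 and 0 with that and without mixed barcodes, and 6 and 5 without mixed barcodes alone. With a minimum of 5 cells, leaving out 1 library gave 0 to 20 higher and 0 to 15 lower. The block of replicate numbers, which no label pairs, gave 7 and 10 with a minimum of 5 cells, and 12 of these 17 were among the 24 calls of the planned fit. Pim1, Pim2, Bcl2, Cdk8 and Ifng passed with this block (edgeR adjusted p = 0.00928, 7.98e-05, 0.00243, 0.0288 and 0.0206). Samples of the same number correlated at 0.319 in their deviations over 1315 genes. The interaction gave 13 higher and 49 lower with no filter, 18 and 38 with an NK sum of at least 3, 0 and 2 by DESeq2, 0 and 4 with a minimum of 5 cells, 27 and 59 without mixed barcodes alone, and 0 and 0 with both changes.

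Signs reversed for 5 genes, mostly uncalled, and the cause was not tested. Gzma was 0.21 with a minimum of 5 cells, 0.26 with the replicate block, and 0.85, 0.27 and 0.19 without Control 2, Nanocapsule 1 and Nanocapsule 2. Prf1 was -0.16, -0.033, -0.70, -0.036 and -0.36 in the same order, and -0.28 with a minimum of 5 cells and without mixed barcodes, but 0.22 without mixed barcodes alone. Ncr1 was -0.10, -0.090, -0.34 and -0.26 in that order up to Nanocapsule 1, and -0.074 and -0.12 without mixed barcodes, with 3 and 4 libraries. Gzma and Gzmb passed without Control 2 (edgeR adjusted p = 0.00306 and 0.011). Gzmb was 1.47 and Klre1 0.18 without Control 2, and Klre1 0.059 without Nanocapsule 1. Planned fits of treatment without Control 2 or without either nanocapsule library, and with the replicate block, could not be fitted on 3 libraries, and Control 1 was out of them already. With 8 to 18 NK cells a library, sums of 33108 to 106203 UMIs limit what any fit can show.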

Other observations

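Ribosomal protein genes were lower in NK than in CD3-positive cells. This group was chosen after its values were seen. Of 77 tested, 36 fell and none rose by edgeR, with a median log2 fold of -0.55 against -0.01 over all tested genes, and they made up 37.9% of the 95 lower calls. The called falls ranged from -1.003 to -0.48. With 4 libraries 6 of the 77 fell with a median of -0.39, without Nanocapsule 1 2 fell with a median of -0.54, and DESeq2 called 0 with a median of -0.55. Median depth was lower in NK than in CD3-positive cells of every library, and its part in this was not tested.

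A few cells held most UMIs of some effector genes. Gzmc had UMIs in 7 of 57 NK cells, and 2 Control 1 cells and 1 Control 2 cell held 177, 216 and 114 of the 519 UMIs. The Control 2 cell also held 149 UMIs of Gzmb, 65 of Xcl1 and 55 of Ccl4. The Control 1 cell with 177 Gzmc UMIs was the mixed barcode that held 96 UMIs of Xcl1 and all 90 of Ccl1, and no Gzma. In the order of the Gzmc counts, these 3 cells held 9336, 8900 and 13241 UMIs in all.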
